A study of Mus musculus with 2 samples.

Results

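Collagens are the main structural proteins of the extracellular matrix, and their genes were described here in the lining of fetal mouse airways. The genes were chosen by name alone, as every non-control probe of the array whose gene name is a collagen alpha chain symbol (Col, a type number, a, a chain number). This gave 40 genes, read by 81 probes of 60 bases on 99 spots, among 19745 named genes and 41170 probes on the array. They were divided into 11 fibrillar collagens, 10 basement membrane collagens and 19 other collagens.

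Both samples came from wild-type male CD-1 mouse fetuses, an outbred strain, one at E18.5 and one at E14.5 (embryonic days). Per the labels' protocols, intralobular airway epithelium was cut by laser from stained frozen sections of 1 lung per age, and its RNA was amplified in a single round. The E18.5 material was labelled with Cy5 and the E14.5 material with Cy3, and both were hybridised to 1 two-colour array, made in a search for genes that act under the ciliary factor FOXJ1. There was thus 1 sample per age, with no replicate, no dye swap and no p-value, and age and dye cannot be told apart. A ratio below is the log2 of the normalized intensity at E18.5 over that at E14.5, so 1 is a 2-fold higher and -1 a 2-fold lower intensity at E18.5. Intensities are in arbitrary units and are compared only between ages for the same probe.

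A collagen molecule is a triple helix of alpha chains, each a long repeat in which glycine returns at a fixed step. Fibrillar collagens are secreted as procollagens, trimmed at both ends and crosslinked into banded fibrils, and in the lung they are made mainly by fibroblasts and smooth muscle. Basement membrane collagens form or anchor the sheet on which an epithelium sits, and epithelial cells make several of them. The remaining collagens decorate fibrils, build networks and filaments, or span the plasma membrane.

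Probe sequences of 2 kinds matter for what follows, as the array file gives them. The first is a pair of overlapping probes for Col2a1, the chain of the cartilage fibril, on the minus strand of mouse chromosome 15 (chr15:97804108-97804167 and chr15:97804088-97804147, build mm8). They share 40 bases, in capitals here, and each has 20 bases of its own:
Col2a1 probe A_52_P216436: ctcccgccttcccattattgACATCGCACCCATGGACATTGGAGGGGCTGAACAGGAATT
Col2a1 probe A_51_P317141: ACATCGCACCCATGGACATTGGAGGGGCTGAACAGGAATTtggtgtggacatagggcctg
Together they read 80 bases, with 1 reading frame free of stop codons. The second kind shows the code of the triple helix itself, as glycine codons (GGN, in capitals) every 9 bases. They are the 3 probes, of 41170 on the array (0.0073%), with at least 5 such codons in a row:
Col11a2 probe A_52_P563285: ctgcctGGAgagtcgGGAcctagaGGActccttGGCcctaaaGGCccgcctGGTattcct
Col5a1 probe A_52_P237371: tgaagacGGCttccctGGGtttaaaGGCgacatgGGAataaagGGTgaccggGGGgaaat
Col5a3 probe A_52_P503796: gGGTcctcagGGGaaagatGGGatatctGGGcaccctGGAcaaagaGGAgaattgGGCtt
These lie on chr17:33662796-33662962 (plus strand), chr2:27808732-27811155 (plus strand) and chr9:20536024-20536753 (minus strand), on mm8. Each covers more genome than its own 60 bases, so it is not 1 continuous stretch there. All 3 stand upstream of a second probe for the same gene. Their ratios were -0.30, -0.18 and -0.06, and those of the downstream probes -2.11, -0.21 and 2.56, so the Col5a1 probes hardly differed. The 3 helix probes were dim, with intensities from 102 to 124 at E18.5 and from 107 to 153 at E14.5. The offset of the background correction pulls dim ratios towards 0, so no effect of helix sequence or position can be read from them.

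Of the 40 genes, 37 were well above background at both ages by the probe used, and Col10a1 was well above background at E14.5 only, which gives a bound. Col19a1, by all 4 of its probes, and Col28a1, by its 1 probe, were not well above background at either age, so 38 genes had a value. At E18.5 the intensity was higher by 2-fold or more for 8 of these, where 17.3% of all 17242 genes with a value were so called. It was lower by 2-fold or more for 10, where 10.1% of all genes were. The other 20 stayed inside that range. At 1.5-fold the counts were 14 higher (26.9% of all genes) and 10 lower (19.2% of all genes). The median ratio of the 38 was 0.32, against 0.06 over all genes, and the range ran from -2.87 for Col11a1 to 2.86 for Col23a1. Which genes stood at the ends depended on the processing. By the scanner software's ratio they were Col22a1 (-3.49) and Col5a3 (3.73).

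**Figure D1:**
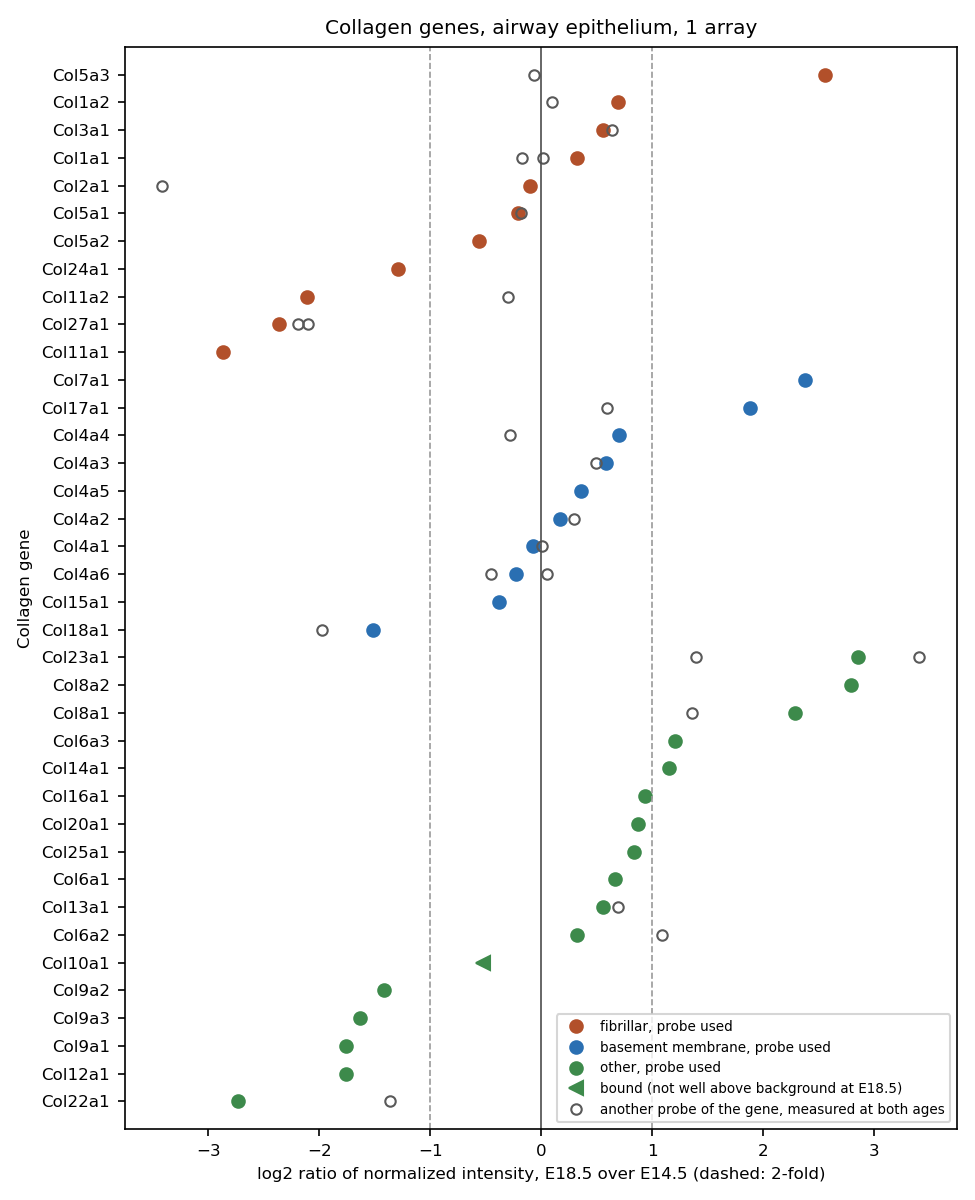
The x axis gives the log2 ratio of normalized intensity, E18.5 over E14.5, and each line is 1 collagen gene, with filled points for the probe used, open points for other probes measured at both ages and a triangle for a bound. The fibrillar genes spread to the left to -2.87, the collagen IV chains stay between -0.23 and 0.70, and Col2a1 has its 2 measured probes 3.31 apart.

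Among the fibrillar collagens, the chains of collagens I, III and V, the fibrils of connective tissue, were within 2-fold in 5 of 6 genes. Of the other 5 fibrillar genes, 4 were lower at E18.5 by 2-fold or more. The exception was Col2a1, the chain of the cartilage fibril, at -0.10 by the probe used and -3.41 by another. Col24a1, among these 4, is not counted with the cartilage collagens below. Over the 11 genes, 1 passed 2-fold upward, 4 passed it downward and 6 did neither, with a median ratio of -0.21. These are 9.1% upward and 36.4% downward, against 17.3% and 10.1% of all genes.

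Col1a1 and Col1a2, the paired chains of collagen I, gave strong signal at both ages. The Col1a1 probe read 60587 at E18.5 and 48370.0 at E14.5, a ratio of 0.32. Its 10 spots had an SD of 0.04 (n = 10 spots of 1 array), and the other Col1a1 probes stood at 0.01 and -0.17. For Col1a2 the intensities were 132240 at E18.5 and 81726 at E14.5, a ratio of 0.69, with another probe at 0.10. Both chains were thus somewhat brighter at E18.5 by their brightest probe and nearly level by the others. Col3a1, the chain of collagen III, which forms mixed fibrils with collagen I, read 112024 at E18.5 and 76216 at E14.5 (0.56), and its other measured probe stood at 0.64. Probes of like brightness had medians of their own: the 100 probes on either side in intensity stood at 0.32 around Col1a2, 0.23 around Col3a1 and -0.09 around Col1a1. Relative to those medians the ratios were 0.38 for Col1a2, 0.32 for Col3a1 and 0.41 for Col1a1. Without the loess step, Col1a2 (1.19) and Col3a1 (1.03) passed 2-fold.

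Collagen V nucleates collagen I fibrils, and its chains went different ways. Col5a1 had an intensity of 10713 at E18.5 and 12424 at E14.5 (-0.21), and the helix probe printed above gave -0.18. Col5a2 read 4687 at E18.5 and 6927 at E14.5 (-0.56), from 1 probe. Both main chains therefore lay slightly below 0. Col5a3, a chain of more restricted expression, read 665 at E18.5 and 113 at E14.5, a ratio of 2.56 or 5.90-fold. This was the single fibrillar gene at least 2-fold higher, and it rests on a dim channel at E14.5: the scanner software's ratio was 3.73, and the helix probe of the gene read 102 at E18.5 and 107 at E14.5 (-0.06).

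Fibroblast markers gave signal at both ages beside these fibrillar genes. All 12 of the mesenchyme and fibroblast markers were well above background in both samples. Their ratios ran from -2.12 to 2.90 with a median of -0.22. Of the 12, 2 (16.7%) passed 2-fold upward and 1 (8.3%) downward, near the 17.3% and 10.1% of all genes. The intensities of the 12 summed to 126466 at E18.5 and 93387 at E14.5. Such a sum pools different probes and follows the bright ones: without Eln, named after its values were seen, the other 11 summed to 82022 at E18.5 and 81144 at E14.5. The part of such cells in the collagen signal was not tested. In bulk material like this, fewer cells of a type and less RNA per cell cannot be told apart.

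The collagens known from cartilage were lower at E18.5. This group holds collagens II and XI, which make the cartilage fibril, collagen IX, which sits on it, collagen XXVII, a minor fibrillar collagen of cartilage, and collagen X, the network of hypertrophic cartilage. All 8 genes had a ratio or bound below 0, and the median was -1.70. At least 2-fold lower were 6 of them (75.0%, against 10.1% of all genes). Col11a1 read 857 at E18.5 and 6270 at E14.5, a 7.32-fold lower intensity at E18.5 (-2.87) and the lowest ratio of any collagen gene by the probe used. By the scanner software's ratio Col22a1 stood lower, at -3.49 against -3.14 for Col11a1. A second Col11a1 probe, not well above background at E18.5, gave a bound of at least 1.68-fold lower. Col11a2, its partner chain, read 193 at E18.5 and 837 at E14.5, 4.33-fold lower at E18.5 (-2.11). The Col11a2 helix probe showed less, with 124 at E18.5 and 153 at E14.5 (-0.30).

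Col27a1 was lower at E18.5 by each of its probes. Its probe used (chr4:62820812-62820871, mm8) read 1185 at E18.5 and 6097 at E14.5, 5.14-fold lower at E18.5 (-2.36). The other Col27a1 probes gave -2.19 and -2.10. Thus its 3 probes differed by 0.26 at most. Col24a1, a minor fibrillar collagen, read 138 at E18.5 and 337 at E14.5 (-1.29), and its second probe was not well above background at E14.5 and gave no fold.

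Col9a1, Col9a2 and Col9a3, the 3 chains of collagen IX, had similar ratios. Col9a1 read 175 at E18.5 and 591 at E14.5, a ratio of -1.76. The Col9a2 probe read 1565 at E18.5 and 4183 at E14.5, a ratio of -1.42. Col9a3 read 130 at E18.5 and 402 at E14.5, a ratio of -1.63. Each chain was lower at E18.5, between 2.67-fold and 3.38-fold. Col9a1 and Col9a3 were dim at E18.5, and the scanner software's ratios for them were larger, at -2.56 and -2.55. Col10a1 was not well above background at E18.5 (75.3) and dim at E14.5 (109), so it was at least 1.44-fold lower at E18.5.

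Col2a1 gave readings of very different size from the 2 overlapping probes printed above. Probe A_51_P317141, the brighter, read 8458 at E18.5 and 9084 at E14.5, a ratio of -0.10 with an SD of 0.06 over 8 spots. Probe A_52_P216436, shifted by 20 bases, read 423 at E18.5 and 4517 at E14.5, 10.7-fold lower at E18.5 (-3.41). The first was nearly level between ages, and the second had the lowest ratio of all 81 collagen probes. Their gap of 3.31 was far beyond the spread of repeated spots, and it is the widest gap within a collagen gene. An ungapped search was run against the probes used for the other collagen genes, allowing overlaps from 20 bases. In it the best match of A_51_P317141 was the bright Col1a2 probe, in 21 of 30 aligned bases (70%). The best match of A_52_P216436 was 16 of 32 (50%). What unrelated probes reach in such a search was not computed, so nothing about either probe can be read from these values. The search compared probes and not transcripts. Whether either probe binds another transcript was not tested. The third Col2a1 probe was not well above background at either age. With Col2a1 taken by A_52_P216436, the number of collagens at least 2-fold lower was 11 and the fibrillar median was -0.56.

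Cartilage markers were lower at E18.5 beside these collagens. Of 8 markers, Matn1 was not well above background at either age, and the other 7 had ratios from -2.21 to -0.11 (median -1.38). Of these 7, 5 were at least 2-fold lower (71.4%, against 10.1% of all genes). The 7 summed to 5171 at E18.5 and 14818 at E14.5. Smooth muscle markers were lower too, with 6 of 7 at least 2-fold lower (85.7%) and a median of -1.52. These summed to 148043 at E18.5 and 375137 at E14.5. What such cells contributed to the ratios of the cartilage collagens was not tested.

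**Figure D2:**
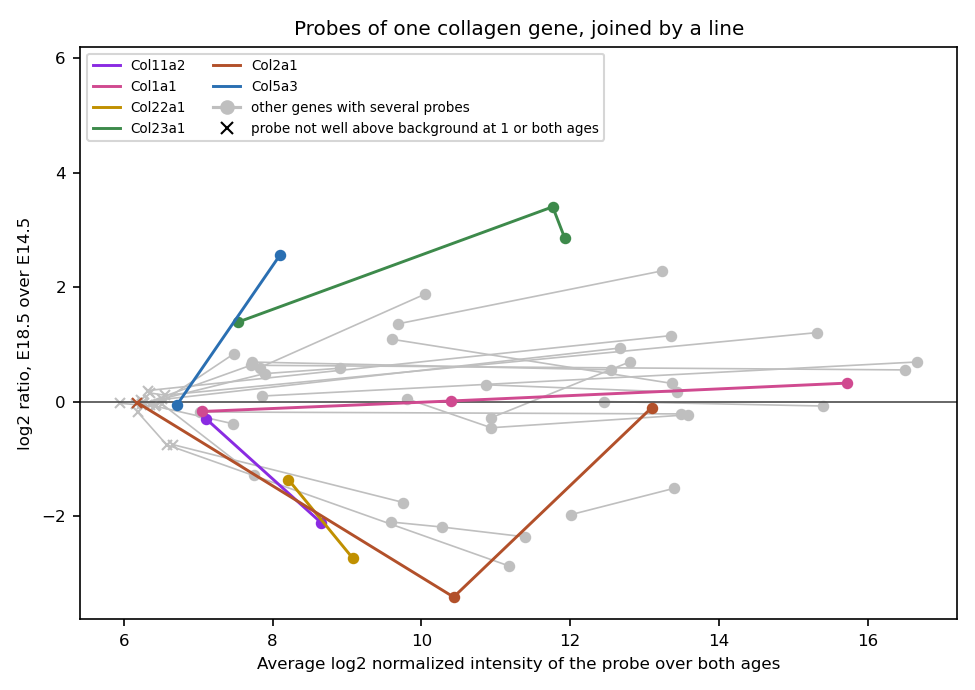
The x axis gives the average log2 normalized intensity of a probe over both ages and the y axis its log2 ratio, E18.5 over E14.5, and lines join the probes of 1 gene, with crosses for probes not well above background at 1 or both ages. The measured Col2a1 probes lie at -0.10 and -3.41, and dim probes of several genes gather near 0 while brighter ones of the same gene lie away from it.

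Probes of the same gene differed across the family. Of the 29 genes with several probes, the brightest probe was the one nearest the 3' end in 24, and it had the largest absolute ratio in 21. The count of 21 takes in probes not well above background. The offset of the background correction pulls their ratios towards 0, so this count follows in part from the processing. Among the 20 genes with several probes measured at both ages, the median gap between the highest and lowest ratio was 0.55, and in 15 all measured probes lay on one side of 0. The median SD between measured probes of a gene was 0.37 over these 20 collagens and 0.33 over 6889 genes of the array. Repeated spots of a probe had a median SD of 0.04 over 204 probes.

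The chains of collagen IV, the sheet-forming collagen of every basement membrane, lay within 2-fold throughout. Collagen VII and collagen XVII, which fasten an epithelium to its basement membrane, were higher at E18.5, and collagen XVIII was lower. Of the 10 basement membrane genes, 2 passed 2-fold upward, 1 passed it downward and 7 did neither, with a median of 0.26. These shares, 20.0% upward and 10.0% downward, were near the 17.3% and 10.1% of all genes.

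The 6 collagen IV genes ranged from -0.23 to 0.70, with a median of 0.26. Col4a1 and Col4a2, the chains of the ubiquitous molecule, were nearly level. The Col4a1 probe read 41951 at E18.5 and 44210 at E14.5, a ratio of -0.08, and its second probe gave 0.00. Col4a2 read 11789 at E18.5 and 10507 at E14.5, a ratio of 0.17, with a second probe at 0.30. The spread between these probes is of the size of the ratios themselves.

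These paired genes lie head to head on mouse chromosome 8, and the promoter is shown because both chains gave the same near-level result. In the RefSeq table for GRCm38.p6, their starts are 21 bases apart on opposite strands, and the 300-base windows (250 bases before and 50 after each start) overlap by 78 bases. The Col4a2 window, chr8:11312555-11312854 on the plus strand, reads as follows, with the overlap in capitals:
Col4a2 promoter: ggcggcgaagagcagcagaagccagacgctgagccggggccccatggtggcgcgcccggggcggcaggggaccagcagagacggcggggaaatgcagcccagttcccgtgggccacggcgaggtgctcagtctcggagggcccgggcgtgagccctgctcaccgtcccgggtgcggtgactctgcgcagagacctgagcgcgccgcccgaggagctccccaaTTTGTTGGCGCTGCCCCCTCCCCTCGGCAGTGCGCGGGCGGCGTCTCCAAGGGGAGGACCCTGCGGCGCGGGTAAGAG
On either strand this window holds GGGCGG, the GC box, at 3 places and CCAAT at 1, and no TATAAA. Over the collagens, 32 genes had 35 such windows in the table. GGGCGG was in 57.1% of these and in 35.7% of all 32851 windows, CCAAT in 34.3% and 37.4%, and TATAAA in 14.3% and 13.6%. None of these motifs contains another, and a match describes the window and is not a binding site.

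Col4a3, Col4a4 and Col4a5 form a molecule found beneath alveolar and glomerular epithelia, and each had a ratio above 0. Col4a3 read 585 at E18.5 and 391 at E14.5 (0.58), with a second measured probe at 0.49. Col4a4 had 9097 at E18.5 and 5614 at E14.5 (0.70), but its second probe stood at -0.28. The 1 Col4a5 probe read 2719 at E18.5 and 2120 at E14.5 (0.36). Col4a6, which pairs with Col4a5 in another molecule and starts 1343 bases from it on chromosome X, read 11325 at E18.5 and 13283 at E14.5 (-0.23), with other probes at -0.46 and 0.05.

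The anchoring collagens had the highest ratios among the basement membrane genes. Col7a1, the collagen of anchoring fibrils, which tie the basement membrane to the stroma, read 5338 at E18.5 and 1029 at E14.5, 5.19-fold higher at E18.5 (2.38) from its 1 probe (chr9:108841747-108841806, mm8). Col17a1, a transmembrane collagen of hemidesmosomes, read 2028 at E18.5 and 551 at E14.5, 3.68-fold higher at E18.5 (1.88). A second Col17a1 probe, 279 at E18.5 and 185 at E14.5, gave 0.59, on the same side. Both genes are known from basal cells of stratified epithelia. Of 5 basal cell markers, 1 passed 2-fold upward and 1 downward (20.0% each), against 17.3% and 10.1% of all genes. Their median was -0.09 and their range -1.61 to 2.40. Their summed intensity was 83424 at E18.5 and 18655 at E14.5, nearly all of it from Krt15, named after its values were seen. The other 4 summed to 1975 at E18.5 and 3225 at E14.5. The part of basal cells in the Col7a1 and Col17a1 ratios was not tested.

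Col18a1, whose C-terminal fragment is endostatin, was lower at E18.5 by both of its probes. The probe used read 6386 at E18.5 and 18240 at E14.5, 2.86-fold lower at E18.5 (-1.51), and the other read 2087 at E18.5 and 8196 at E14.5 (-1.97). Col15a1, the collagen closest to it in structure, was dim, with 154 at E18.5 and 201 at E14.5 (-0.38), and its second probe was not well above background at either age.

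**Figure D3:**
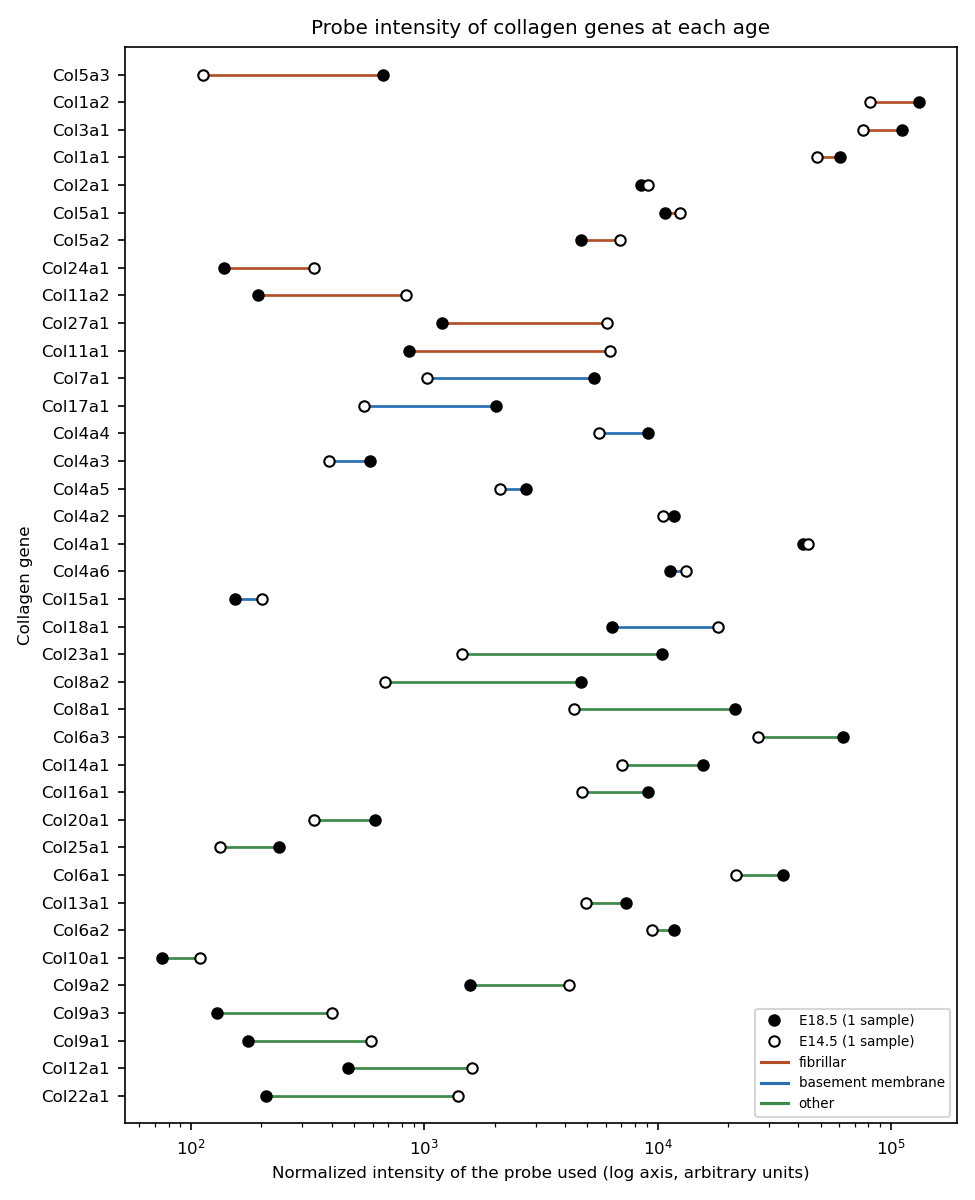
The x axis gives the normalized intensity of the probe used on a log axis, with filled points for E18.5 and open points for E14.5 (1 sample each), joined by a line coloured by class. The length of a line follows the ratio, but the offset of the background correction shortens the lines of dim genes. Positions of different genes cannot be compared. The Col10a1 line ends at an E18.5 intensity not well above background. Col23a1, Col8a2 and Col7a1 have long lines with E18.5 on the right, Col11a1 and Col22a1 with E18.5 on the left.

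The other collagens spread widely to both sides, from -2.73 for Col22a1 to 2.86 for Col23a1. Of 19 genes, 17 had a value, of which 5 passed 2-fold upward, 5 downward and 7 neither, with a median of 0.66. The upward and downward shares were each 29.4%, against 17.3% and 10.1% of all genes.

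Among network and filament formers, collagen VIII and collagen VI were both on the higher side. Col8a1 and Col8a2, the chains of a short-chain collagen known from vessel walls and the basement membrane of the cornea, both passed 2-fold. Col8a1 read 21395 at E18.5 and 4381 at E14.5, 4.88-fold higher at E18.5 (2.29), with a second probe at 1.36. Col8a2 read 4709 at E18.5 and 679 at E14.5, 6.94-fold higher at E18.5 (2.79). Collagen VI makes beaded filaments around cells from 3 different chains, and the ratios of these were 1.21, 0.66 and 0.32. Col6a3 read 62308 at E18.5 and 26969 at E14.5, 2.31-fold higher at E18.5. The Col6a1 intensities were 34416 at E18.5 and 21776 at E14.5. Col6a2 read 11785 at E18.5 and 9437 at E14.5, with a second probe at 1.09, so the probes of the 3 chains measured at both ages were above 0. A second Col6a3 probe, not well above background at E14.5, gave a bound of at least 1.08-fold higher, and the median over both Col6a3 probes was 0.66, within 2-fold.

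Some markers of other cell types were also higher beside these genes, where 17.3% of all genes were at least 2-fold higher. Endothelial markers were at least 2-fold higher in 3 of 8, with a median of 0.77, ratios from 0.09 to 4.13 and summed intensities of 96938 at E18.5 and 15140 at E14.5. Pericyte markers were so in 2 of 5 (median 0.23, range -0.37 to 2.59), with sums of 21791 at E18.5 and 14930 at E14.5. Mesothelial markers were higher by 2-fold or more in 2 of 5 (median 0.13, range 0.05 to 3.13), with sums of 48400 at E18.5 and 5943 at E14.5. Single probes carried much of these sums (genes named after their values were seen). Without Kdr, the other 7 endothelial markers summed to 25269 at E18.5 and 11050.1 at E14.5. Without Notch3, the other 4 pericyte markers summed to 8826 at E18.5 and 3657 at E14.5. Without Msln, the other 4 mesothelial markers summed to 4808 at E18.5 and 968 at E14.5. All members of these 3 lists were well above background at both ages, but some mesothelial markers were dim. Wt1 read 138 at E18.5 and 128 at E14.5, Upk3b 112 and 102, and Lrrn4 97.2 and 93.9. The offset pulls such ratios towards 0, so the mesothelial median follows in part from the processing. The part of these 3 lists in the collagen ratios was not tested.

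The transmembrane collagens had ratios above 0 in all 4 genes, with a median of 1.36. Col23a1, which is shed from the surface of epithelial and other cells, had the highest ratio of the family in the main processing. By the scanner software's ratio Col5a3 stood higher, at 3.73 against 2.8 for Col23a1. The Col23a1 probe used read 10489 at E18.5 and 1449 at E14.5, 7.24-fold higher at E18.5 (2.86). The neighbouring probe read 11334 at E18.5 and 1069 at E14.5 (3.41), and a dimmer one read 302 at E18.5 and 115 at E14.5 (1.39). So all 3 Col23a1 probes, spread over chromosome 11 from 51411346 to 51426865 on mm8, were at least 2-fold higher. Col13a1, a transmembrane collagen of cell junctions, read 7290 at E18.5 and 4955 at E14.5 (0.56), with a second probe at 0.69. Col25a1, first described from amyloid plaques of brain, was dim, with 238 at E18.5 and 133 at E14.5 (0.84). It passed 2-fold by the scanner software's ratio, at 1.26. Col17a1 is the fourth of the group. Epithelial markers were well above background at both ages in 8 of 8, with a median of 0.49 and a range of -0.75 to 1.59. Of these 8, 3 were at least 2-fold higher (37.5%, against 17.3% of all genes) and 3 lay below 0. The 8 summed to 501326 at E18.5 and 305441 at E14.5. Alveolar type I markers, of a cell type that forms late in gestation, were at least 2-fold higher in 4 of 7 (57.1%). These 7 had a median of 1.65 and a range of -0.71 to 4.43, with sums of 95551 at E18.5 and 33937 at E14.5.

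The FACITs, collagens with interrupted helices that attach to fibrils, were mostly lower. Of 9 genes, 8 had a value, of which 5 passed 2-fold downward and 1 upward, with a median of -1.53. Over all genes, 10.1% passed it downward and 17.3% upward. The 3 collagen IX chains given above are part of this count. Col12a1, which binds collagen I fibrils in dense connective tissue, read 470 at E18.5 and 1596 at E14.5, 3.39-fold lower at E18.5 (-1.76), and its second probe gave a bound of at least 1.69-fold lower. Col14a1, its nearest relative, lay on the other side, with 15700.0 at E18.5 and 7047 at E14.5, 2.23-fold higher at E18.5 (1.16). That call is close to 2-fold, and the scanner software's ratio was 0.99. The ratios of these related chains thus stood on opposite sides of 0. Col22a1, a collagen of tissue junctions such as that of muscle and tendon, read 209 at E18.5 and 1392 at E14.5, 6.65-fold lower at E18.5 (-2.73), and its second probe stood at -1.36. Col16a1 read 9051 at E18.5 and 4722 at E14.5 (0.94), just short of 2-fold, and Col20a1 read 612 at E18.5 and 335 at E14.5 (0.87).

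Neighbouring collagen genes had like ratios in some pairs and unlike ones in others. On chromosome 1 (mm8), Col3a1 (chr1:45293290-45293349) and Col5a2 (chr1:45321322-45321381) lie on opposite strands and had ratios of 0.56 and -0.56. On chromosome 10, Col6a2 (chr10:76039902-76039961) and Col6a1 (chr10:76152870-76152929) had 0.32 and 0.66, while Col18a1 (chr10:76496791-76496850) had -1.51. Col4a3 and Col4a4, which lie side by side on chromosome 1, had 0.58 and 0.70.

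The machinery that modifies, trims and crosslinks collagen had members on both sides. Of 38 such genes, each with a value, 7 passed 2-fold upward, 7 downward and 24 neither, with a median of -0.12. Each count is 18.4% of the list, where 17.3% of all genes passed upward and 10.1% downward. The upward share was thus near that of all genes. By the scanner software's ratio and by the authors' value table, 12 passed it downward. The higher 7 included enzymes and helpers of the secreted molecule and also subunits of prolyl 4-hydroxylase, an enzyme of the endoplasmic reticulum. Lox, the lysyl oxidase that starts crosslinking, read 53332 at E18.5 and 16076 at E14.5 (1.73). Pcolce2 (7.98-fold) and Pcolce (2.90-fold), which enhance removal of the C-propeptide, were higher, as was Adamts2 (2.99), which removes the N-propeptide, though other Adamts2 probes ran from -0.90 to 3.05. P4ha2 (1.41) and P4ha1 (1.03), prolyl 4-hydroxylase subunits, and Creb3l1 (1.07), a transcription factor known to drive collagen I genes in bone, completed these 7.

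The lower 7 likewise held both kinds. Chaperones and enzymes of the endoplasmic reticulum stood beside Bmp1, Pxdn and Loxl2, which act on the secreted molecule. Serpinh1, the collagen chaperone HSP47, read 44835 at E18.5 and 104388 at E14.5 (-1.22). Bmp1, the protease that removes the C-propeptide, had a ratio of -1.75, with another probe at -0.66. Plod2, a lysyl hydroxylase, stood at -1.67, and Pxdn, the peroxidase that crosslinks collagen IV, at -1.61. P4ha3 (-1.37), the prolyl isomerase Fkbp10 (-1.21) and Loxl2 (-1.10) were the others. Within the prolyl 4-hydroxylase and lysyl oxidase families, members therefore stood on both sides.

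Among collagen receptors, 3 of 14 genes passed 2-fold upward, 1 passed it downward and 10 did neither, with a median of 0.02, against 17.3% and 10.1% of all genes upward and downward. Ddr1, the discoidin domain receptor of epithelia, read 44326 at E18.5 and 14089.6 at E14.5, 3.15-fold higher at E18.5 (1.65). Cd44 had a ratio of 2.11 by its brightest probe, while other Cd44 probes stood at -0.04 and -0.01. Itga11, the alpha chain of a fibrillar collagen integrin of fibroblasts, was 2.66-fold higher at E18.5 (1.41), and Cspg4 stood at 0.23. At the lower end were Mrc2, an endocytic receptor that clears collagen (-1.04), Itga1 (-0.79), Adgrg6 (-0.47) and Itgb1 (-0.30).

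Matrix proteins that bind collagen had members on both sides. Of 27 listed, 25 had a value, of which 6 passed 2-fold upward, 8 downward and 11 neither, with a median of -0.17. These are 24.0% upward and 32.0% downward, against 17.3% and 10.1% of all genes. Small leucine-rich proteoglycans, which sit on fibrils and set their width, stood at both ends. Fmod (fibromodulin) read 2126 at E18.5 and 27097 at E14.5, 12.7-fold lower at E18.5 (-3.67). Ogn (osteoglycin) read 63392 at E18.5 and 13934 at E14.5 (2.19), and Aspn (asporin) read 13938 at E18.5 and 1891 at E14.5 (2.88). Omd was at least 4.08-fold higher, being not well above background at E14.5. Among the other proteins, Dpt (4.27), Fn1 (1.35) and Tnxb (1.20, with another probe at -0.23) were higher. Lower members were Epyc (-2.15), Thbs1 (-1.93), Tgfbi (-1.93), Matn4 (-1.57), Vwa1 (-1.44), Matn3 (-1.24) and Lum (-1.13). Matn1 was dim at both ages, and Hspg2 was not matched by name. Matn1 and Matn3 are also among the cartilage markers, as Cspg4 is among the pericyte markers.

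**Figure D4:**
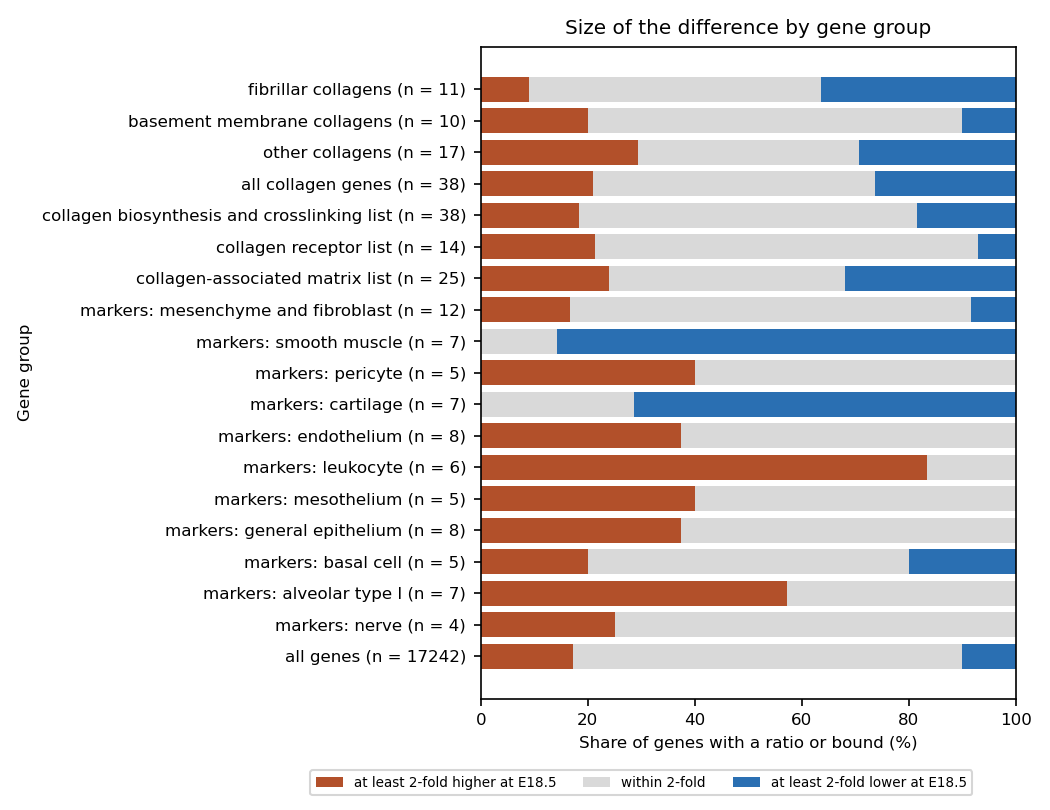
The x axis gives the share of genes with a ratio or bound, in percent, and each bar is 1 gene group, divided into genes higher at E18.5 by 2-fold or more, within 2-fold, and lower by 2-fold or more. The collagens have a lower share of 26.3%, against 10.1% over all genes, and the cartilage and smooth muscle marker bars are the ones with no higher part.

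The lists of other cells varied widely in this pair of samples. Leukocyte markers passed 2-fold upward in 5 of 6 (83.3%, against 17.3% of all genes), with a median of 3.12. The 6 summed to 157677 at E18.5 and 4322 at E14.5. Without Lyz2, named after its values were seen, the other 5 summed to 10762 at E18.5 and 2554 at E14.5. On the whole array, 78.7% of probes were well above background at E18.5 and 75.2% at E14.5.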

How the data were processed

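Airway epithelium of 1 E18.5 and 1 E14.5 lung was read on 1 Agilent two-colour array, and samples were grouped by their titles. The scanner outputs deposited for both samples were identical in 115 of 115 columns and were read once, red (Cy5) for E18.5 and green (Cy3) for E14.5, per the labels. The deposited mean and median background intensities are linear and uncorrected. They come from Agilent Feature Extraction 9.5.3.1, per the submitters' processing notes. Processed intensities, a log10 ratio of red over green and other values (flags of 0 or 1 for outliers, saturation and signal well above background) are the scanner software's, per the file headers. The authors' value table holds linear intensities, which on comparison were the processed signal times 0.339 with a floor of 15, not centred (column medians 130.2 at E18.5 and 129 at E14.5). Probe coordinates are mm8, per the file headers, and no annotation of that build was used.

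Intensities were corrected with normexp (offset 50), and the log2 of red over green was normalized with limma 3.58.1 (R 4.3.3) by within-array loess, span 0.3 and 4 iterations, after a test on simulated data. The offset pulls dim ratios towards 0, and loess hides a shift common to most genes. Of 45018 spots, 1639 controls and 160 outliers were left out, and 0 probes were saturated. Spots of a probe were averaged. A gene took its brightest probe well above background in at least 1 channel. With 1 channel dim, the ratio is a bound ("at least N-fold"), the bright signal over the higher of the lowest signal well above background in the dim channel (63.2 at E18.5, 83.4 at E14.5) and the probe's own, open to dye bias. A RefSeq table (GRCm38.p6) named 33095 probes, and 8075 kept the name in the file. Collagen symbols are those of the file. Python 3.11.15, numpy 2.4.6, pandas 2.3.3 and matplotlib 3.10.9 were used.

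Calls are by size alone (2-fold), and the number of arrays, 1, limits the precision. Spreads of spots and probes cover no difference between animals. The collagens and the lists of other genes were chosen with earlier results of these data known. Every collagen could be named. Of each pathway list, the 4 largest and 4 smallest ratios and members at least 2-fold apart could be, and of marker lists only counts, ranges and members at background. Alternatives changed the background correction, loess, the ratio's source, the probe rule, the filter on dim probes and the size of a call.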

Additional observations from a re-analysis of the deposited data

How the results depend on the processing

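No paired analysis was possible because each age is 1 sample on the same array, and for that reason no replicate could be left out. The count of collagens at least 2-fold higher was 8, and 14 at 1.5-fold, and that of all genes lower was 1738, and 2637 by the scanner software's ratio. The fibrillar median was -0.21, and -0.56 with the median over probes or, chosen after seeing the data, with Col2a1 by its second probe. Under the other alternatives run, collagen counts stayed within 1.5 times and class medians kept their sign. The receptor median was -0.10 by the scanner ratio and -0.11 by the authors' value table. It was -0.01 with the median over probes, and also with only probes well above background in both channels. Of the biosynthesis list, 7 were lower by 2-fold or more, and 12 by the scanner ratio or the authors' value table. Of the receptors, 1 was lower, 2 by either of these and 0 with the median over probes. No collagen 2-fold or more apart changed sign. Calls of 2-fold changed for Col25a1 (offset 16), Col1a2 (1.19) and Col3a1 (1.03, both without loess, which moved the median of all genes to 0.13), Col10a1, Col14a1 and Col25a1 (scanner ratio), Col14a1 and Col25a1 (the authors' value table), and Col2a1 (-1.76) and Col6a3 (0.66, both with the median over probes). The cause was not tested. Signal over background limits the dim collagens: Col5a3 was 2.56, and 3.01 with offset 16. Relative to the 100 probes on either side in intensity, an alternative added after seeing the data, all 38 calls were the same.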

Other observations

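A few transcripts related to collagens carry other names on the array and were outside the set described above. Emid2, now named Col26a1, read 4769 at E18.5 and 1672 at E14.5, a log2 ratio of 1.51. The probes of 1110001D15Rik, now Col6a4, gave -0.27 and 0.04, and that of E330026B02Rik, now Col6a6, was not well above background at either age. Cthrc1, a secreted protein with a short collagen repeat, stood at -0.15, and Emid1 at -0.05.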
